A study of Mus musculus with 11 samples.

Results

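The hypoxia-inducible factor (HIF) pathway was followed through 10 genes of the 25311 in the count table, chosen by name. They were the factor subunits Hif1a and Epas1 (the gene of HIF-2α), the oxygen-sensing prolyl hydroxylases Egln1 and Egln3, and the targets Bnip3, Ankrd37, Adm, Ndrg1, Pdk1 and Ddit4. All 10 were in the table, and their levels were described across retinal cell classes and 4 groups of C57BL/6J mouse pups at P10. Control pups had been given PBS (n = 3 mice). Phase I ROP pups, a model of the vascular delay of early retinopathy of prematurity, had been made hyperglycemic by intraperitoneal streptozotocin (STZ) on each of the preceding days (n = 3 mice). A further 5 STZ-treated pups were nursed by dams on a diet enriched in ω-3 (n = 2 mice) or ω-6 (n = 3 mice) fatty acids. Control and Phase I ROP pups were littermates, as were the pups of both diets, but each diet had its own cage and dam, so that diet and cage cannot be told apart. Both sexes were used. STZ was given to the whole animal, and no group separates its effect on glucose from any other.

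HIFs are transcription factors of an oxygen-labile α subunit, Hif1a or Epas1, and a stable partner. In well-oxygenated cells the Egln enzymes hydroxylate the α subunit, which is then ubiquitinated and destroyed, so that the amount of HIF protein is set largely after transcription. In low oxygen the α subunit escapes, enters the nucleus and switches on genes of glucose use, vessel growth and mitochondrial turnover, and Egln1 and Egln3 are themselves HIF targets. In the newborn retina low tissue oxygen ahead of the growing vessels is known to drive Vegfa in glia and astrocytes. The data are RNA counts and hold no measurement of HIF protein or of oxygen.

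HIF binds DNA at a short core, ACGTG or GCGTG, and the 250 bases before the start sites of 4 members are shown because these genes moved in opposite directions in the comparison with controls given later: Ddit4 and Egln1 rose in several classes, and Bnip3 and Ankrd37 fell in amacrine cells. The sequences are from RefSeq on GRCm38.p6, all 4 from the minus strand, written 5′ to 3′ and ending at the base before the start. Capitals mark ACGTG or GCGTG on either strand, so that a match on the other strand reads CACGT or CACGC.
Ddit4 (chr10:59951771-59952020): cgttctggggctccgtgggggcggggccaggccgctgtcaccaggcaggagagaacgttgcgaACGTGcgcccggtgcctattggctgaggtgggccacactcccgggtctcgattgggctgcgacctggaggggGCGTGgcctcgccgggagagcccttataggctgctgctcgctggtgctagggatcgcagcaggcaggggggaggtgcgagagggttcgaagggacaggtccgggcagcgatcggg
Egln1 (chr8:124949255-124949504): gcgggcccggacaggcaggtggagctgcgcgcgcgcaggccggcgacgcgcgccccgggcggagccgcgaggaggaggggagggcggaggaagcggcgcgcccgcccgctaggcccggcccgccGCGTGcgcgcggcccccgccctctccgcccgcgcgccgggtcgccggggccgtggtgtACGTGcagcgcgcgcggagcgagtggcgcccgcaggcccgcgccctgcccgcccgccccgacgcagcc
Bnip3 (chr7:138909507-138909756): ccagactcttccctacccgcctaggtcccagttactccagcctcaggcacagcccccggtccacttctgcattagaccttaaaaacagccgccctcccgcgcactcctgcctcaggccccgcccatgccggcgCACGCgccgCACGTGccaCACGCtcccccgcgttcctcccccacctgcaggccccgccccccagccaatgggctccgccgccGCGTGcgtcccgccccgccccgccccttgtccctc
Ankrd37 (chr8:45999851-46000100): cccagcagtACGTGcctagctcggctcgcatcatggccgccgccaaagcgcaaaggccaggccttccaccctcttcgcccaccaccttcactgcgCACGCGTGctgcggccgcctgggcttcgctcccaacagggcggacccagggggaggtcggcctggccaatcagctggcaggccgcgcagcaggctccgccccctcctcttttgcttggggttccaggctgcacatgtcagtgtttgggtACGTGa

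Ddit4 had matches 187 and 115 bases before its start, and Egln1 had matches 126 and 68 bases before. Bnip3 had 5 matches, at 117, 108, 107, 99 and 35 bases, of which those at 108 and 107 are the same palindrome read on each strand. Ankrd37 had 4, at 241, 155, 152 and 6 bases. Windows for 8 of the 10 members were found, 9 windows in all since Pdk1 has 2 starts, and those of Epas1 and Ndrg1 are not shown. At least 1 match lay in 8 of the 9 member windows: 3 in Hif1a, 2 in Adm, 2 and 0 in the windows of Pdk1, and 1 in Egln3. Of 32851 windows of all genes (300 bases, 250 before and 50 after the start), 43.8% held at least 1 match, 20.6% at least 2, 3.9% at least 4 and 1.7% at least 5. A match is a description of the letters and not evidence of binding. Both the 2 genes that rose and the 2 that fell carried the core.

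In GRCm38 (GENCODE gene annotation), Hif1a spans chr12:73901375-73947530 and Epas1 chr17:86753700-86833410, both on the plus strand. Egln1 lies at chr8:124908587-124949324 and Egln3 at chr12:54178981-54203860, both on the minus strand. Ndrg1 lies at chr15:66929318-66969640, Ddit4 at chr10:59949669-59951834, Bnip3 at chr7:138890836-138909519 and Ankrd37 at chr8:45996902-46005707, all on the minus strand. Pdk1 lies at chr2:71873224-71903858 and Adm at chr7:110627661-110629820, on the plus strand. An antisense gene, Gm45507, overlaps Bnip3, and the counting is not stated to use strand, so reads of the pair cannot be told apart. Hif1a, Ankrd37, Adm and Ndrg1 also overlap annotated genes of the other strand, with the same limit. On their own strand, Epas1 overlaps AC096777.1 and Hif1a overlaps Gm49321, where strand could not tell the reads apart.

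Single cells had been captured in droplets (inDrop v3), and each RNA molecule was counted once by its unique molecular identifier (UMI). Each mouse gave 2563064 to 6516478 UMIs in 787 to 2618 cells, and the median UMIs per cell were 1550 to 2341 in controls, 1003.5 to 1190 in Phase I ROP and 1386.5 to 2215 on the diets. Of 20033 cells kept, clusters named from canonical markers held 10178 rods, 3596 bipolar cells, 3287 amacrine cells, 1425 Müller glia and 1126 cones, with 31 to 113 cells in each of 6 small classes. These names stand for rod-like, cone-like and so on. Of the rods, 3194 cells were in clusters named by rod markers that were not among their leading genes. Some cell barcodes (1157) occurred in more than 1 library, in 2352 cells. Several features of the libraries moved with STZ treatment. A list of 30 genes of the dissociation response summed, as counts per 1000000 UMIs (CPM), to 2733 to 3346 CPM in all cells of controls, against 5225 to 6835 CPM in Phase I ROP, 6072 to 6917 CPM on the ω-3 diet and 5607 to 6126 CPM on the ω-6 diet. All 5 genes of an RNA quality list were lower in Phase I ROP in all cells, such as the structured RNA Rn7sk at 193 to 290 CPM in controls and 1.15 to 9.38 CPM in Phase I ROP, and the mitochondrial ribosomal RNA mt-Rnr2 at 28198 to 41192 and 4280 to 7780 CPM. Every STZ comparison of the members carries these shifts, and their part in it was not tested.

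Members differed widely in where their RNA was found. A level here is the CPM of a gene in the UMIs of the class, summed over its cells, and is compared between classes for 1 gene, never between genes. Classes come from clustering the same cells, so the order of classes is a description without a test. Of the 10 members, only Epas1 was among the 2000 variable genes used in clustering. Means are over all 11 mice, which include treated ones.

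**Figure D1:**
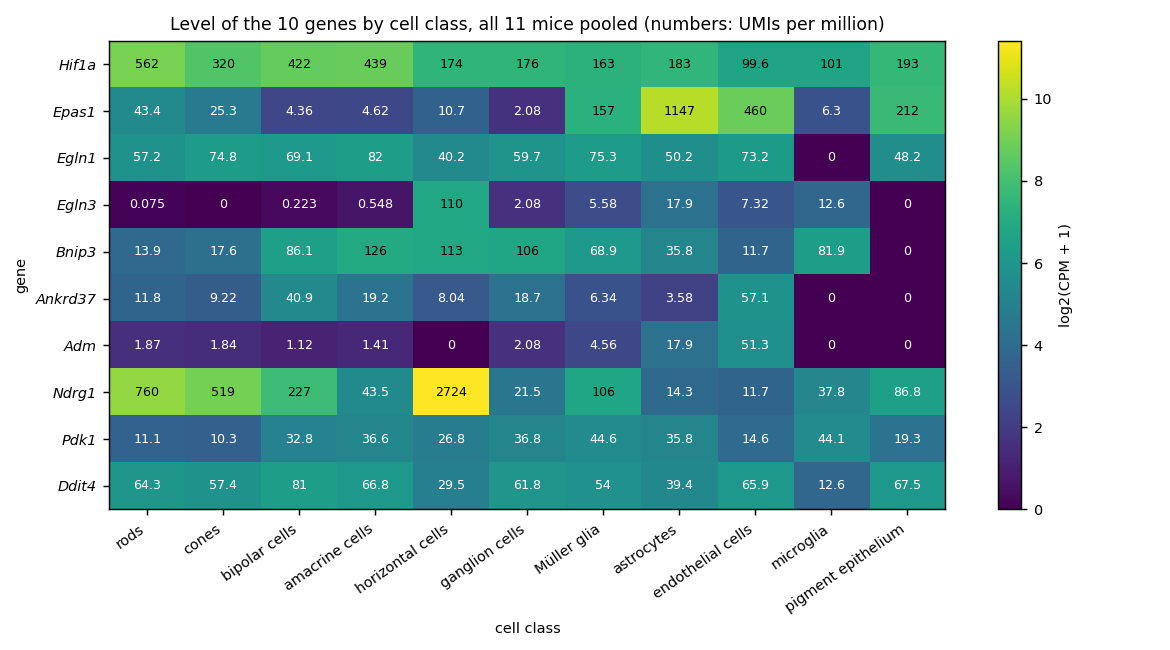
Levels of the 10 members in 11 cell classes. Each cell of the grid gives CPM pooled over 11 mice, with color on the log2(CPM + 1) scale. Epas1 is highest in astrocytes (1147 CPM), Ndrg1 and Egln3 in horizontal cells (2724 and 109.9 CPM), and Adm in endothelial cells (51.3 CPM).

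The 2 factor subunits had different distributions. Hif1a RNA was found in every class, with a mean of 534 ± 161 CPM in rods (SD, n = 11 mice), 441 ± 67.6 in amacrine cells and 438 ± 109.7 in bipolar cells. Cones had 252 ± 123 CPM and Müller glia 155 ± 40.5 CPM. The ranges over mice of neighbouring classes in this order overlapped, and 9 of 11 mice had more Hif1a in rods than in amacrine cells. Within amacrine cells the level differed by cluster: 813 CPM in the cluster led by Ebf3, Prdm13 and Crabp1 (1356 cells), against 257 CPM in that led by Cartpt, C1ql1 and Cbln2 (1337 cells). In bipolar cells it was 542 CPM in the Grik1 cluster and 384 CPM in the cluster led by Pcp2, Isl1 and Trpm1.

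Epas1, in contrast, was a gene of glia and vessels. Pooled over mice it stood at 1147 CPM in 47 astrocytes (95% Poisson interval 1024 to 1279), a cluster with Pdgfra, S100b and Gfap among its leading genes after Igf2 and H19. It stood at 460.0 in 113 endothelial cells (410.5 to 514; this cluster also carries the pericyte gene Rgs5) and 212 in 75 pigment epithelium cells (133 to 321), although that layer had been dissected away. These intervals, like all others of pooled counts here, cover counting error only. Of the 5 larger classes, Müller glia had 165 ± 50.1 CPM (SD, n = 11 mice) and rods 41.1 ± 28.9 CPM, with Müller glia higher in 11 of 11 mice and no overlap of the ranges. Cones had 19.8 ± 14.9 CPM, while bipolar cells were at 0, 3.51 and 0 CPM in the control mice and 12.8, 5.94 and 3.06 CPM in the Phase I ROP mice, and amacrine cells had 4.51 ± 2.15 CPM.

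Of the hydroxylases, Egln1, the main oxygen sensor, had means over the 11 mice from 47.6 CPM in rods to 79.1 CPM in amacrine cells, and all neighbours in this order overlapped. In the 3 control mice alone the classes lay further apart, with rods at 11.6, 10.5 and 14.4 CPM and Müller glia at 89.2, 42.9 and 62.1 CPM. Egln3, an inducible form, was highest in small classes. Horizontal cells, the lateral interneurons of the outer retina, held 41 of its UMIs in 31 cells, a level of 109.9 CPM (78.9 to 149). Astrocytes stood at 17.9 CPM on 5 UMIs, microglia at 12.6 CPM on 2 UMIs, endothelial cells at 7.32 CPM on 5 UMIs and Müller glia at 5.58 CPM on 22 UMIs, and the intervals of these 4 overlapped. The 1126 cones had 0 UMIs, which allows up to 0.79 CPM at 3 counts.

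Horizontal cells also had the highest pooled level of Ndrg1, a stress-responsive gene of the N-myc downstream-regulated family, at 2724 CPM (2559 to 2897). Rods followed at 760.4 CPM and cones at 519, bipolar cells stood at 227, Müller glia at 106, amacrine cells at 43.5 and endothelial cells at 11.7 CPM. Rods were above cones in 11 of 11 mice, though the ranges overlapped.

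Among the mitochondrial and metabolic targets, Bnip3, a receptor for mitophagy, was lower in photoreceptors than in the other 3 larger classes. It stood at 129.5 ± 29.3 CPM in amacrine cells (SD, n = 11 mice), 87.2 ± 19 in bipolar cells and 74.7 ± 23.8 in Müller glia, and at 17.6 ± 9.80 and 16.4 ± 8.07 CPM in cones and rods. Müller glia lay above cones in 11 of 11 mice without overlap. Pdk1, a mitochondrial kinase that inhibits pyruvate dehydrogenase, was at 43.7 ± 20.8 CPM in Müller glia, 36.4 ± 7.06 in amacrine cells, 32.4 ± 8.9 in bipolar cells and 11.2 ± 4.05 in rods. Ankrd37, a small ankyrin-repeat protein, was highest in endothelial cells (57.1 CPM, 40.6 to 78.1) and bipolar cells (40.9 CPM, 36.8 to 45.3), whose intervals overlap. Adm, the vasodilator peptide adrenomedullin, was at 51.3 CPM in endothelial cells (35.7 to 71.3) and at or under 4.56 CPM in the 5 larger classes. Ddit4, an inhibitor of mTORC1, ran from 54.0 CPM in Müller glia to 81.0 CPM in bipolar cells among those 5.

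The first comparison asks what differed after STZ treatment, Phase I ROP vs. control. UMIs were summed per mouse and class and tested in edgeR by the quasi-likelihood test, with p-values adjusted over all genes of the class by Benjamini-Hochberg. A gene is called where the adjusted p is under 0.05. Fold changes are on the log2 scale after TMM scaling, a correction for composition, and so can be smaller than the ratio of CPM values. P-values measure the spread between mice. In rods 8425 genes were tested and 41.1% called (20.4% higher and 20.7% lower), and 4 of the 5 members that passed the count filter were called, all higher. In cones 18.8% of 3125 genes were called (10.9% higher, 7.9% lower), and 2 of the 3 members that passed the filter were called, both higher. In bipolar cells 45.3% of 10019 were called (21.3% higher, 23.9% lower), and 2 of 7 members rose. In amacrine cells 38.8% of 11315 were called (18.3% higher, 20.5% lower), and 2 of 7 members rose and 2 fell. In Müller glia 10.8% of 4855 were called (5.81% higher, 5.03% lower) and 1 of 7 members rose. In sums over all cells 48.1% of 15964 were called (24.7% higher, 23.4% lower), and 5 of 8 members rose and 2 fell. Which members were tested depended on the filter. In rods Epas1, Egln1 and Ddit4 had 16, 15 and 11 UMIs in controls and passed through their 214, 162 and 192 UMIs in Phase I ROP, while Bnip3 (22 and 47 UMIs), Pdk1 (16 and 32) and Ankrd37 (13 and 18) were below it. The counts of members called therefore describe the members tested and say nothing of the members as a group. Groups without overlap between the mice were common over all genes tested, at 55.5% in rods, 40.0% in cones, 32.6% in Müller glia, 54.3% in amacrine cells, 58.4% in bipolar cells and 57.8% in all cells. Scaling to library totals, chosen after seeing the data, shifted all genes up by a median log2 of 0.16 in Müller glia to 0.45 in bipolar cells. The share of calls that were higher then went from 49.6 to 65.8% in rods, 57.9 to 82.7% in cones, 53.6 to 72.9% in Müller glia, 47.1 to 74.3% in amacrine cells, 47.1 to 74.7% in bipolar cells and 51.4 to 70.6% in all cells. Under that scaling the uncalled changes of Bnip3 (0.15), Ndrg1 (0.34) and Pdk1 (0.15) in bipolar cells and of Hif1a (0.30) and Pdk1 (0.33) in amacrine cells were above 0, whereas they were below 0 with TMM. Members below the count filter of a class had no test there. Egln3 and Adm were below it in every class.

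**Figure D2:**
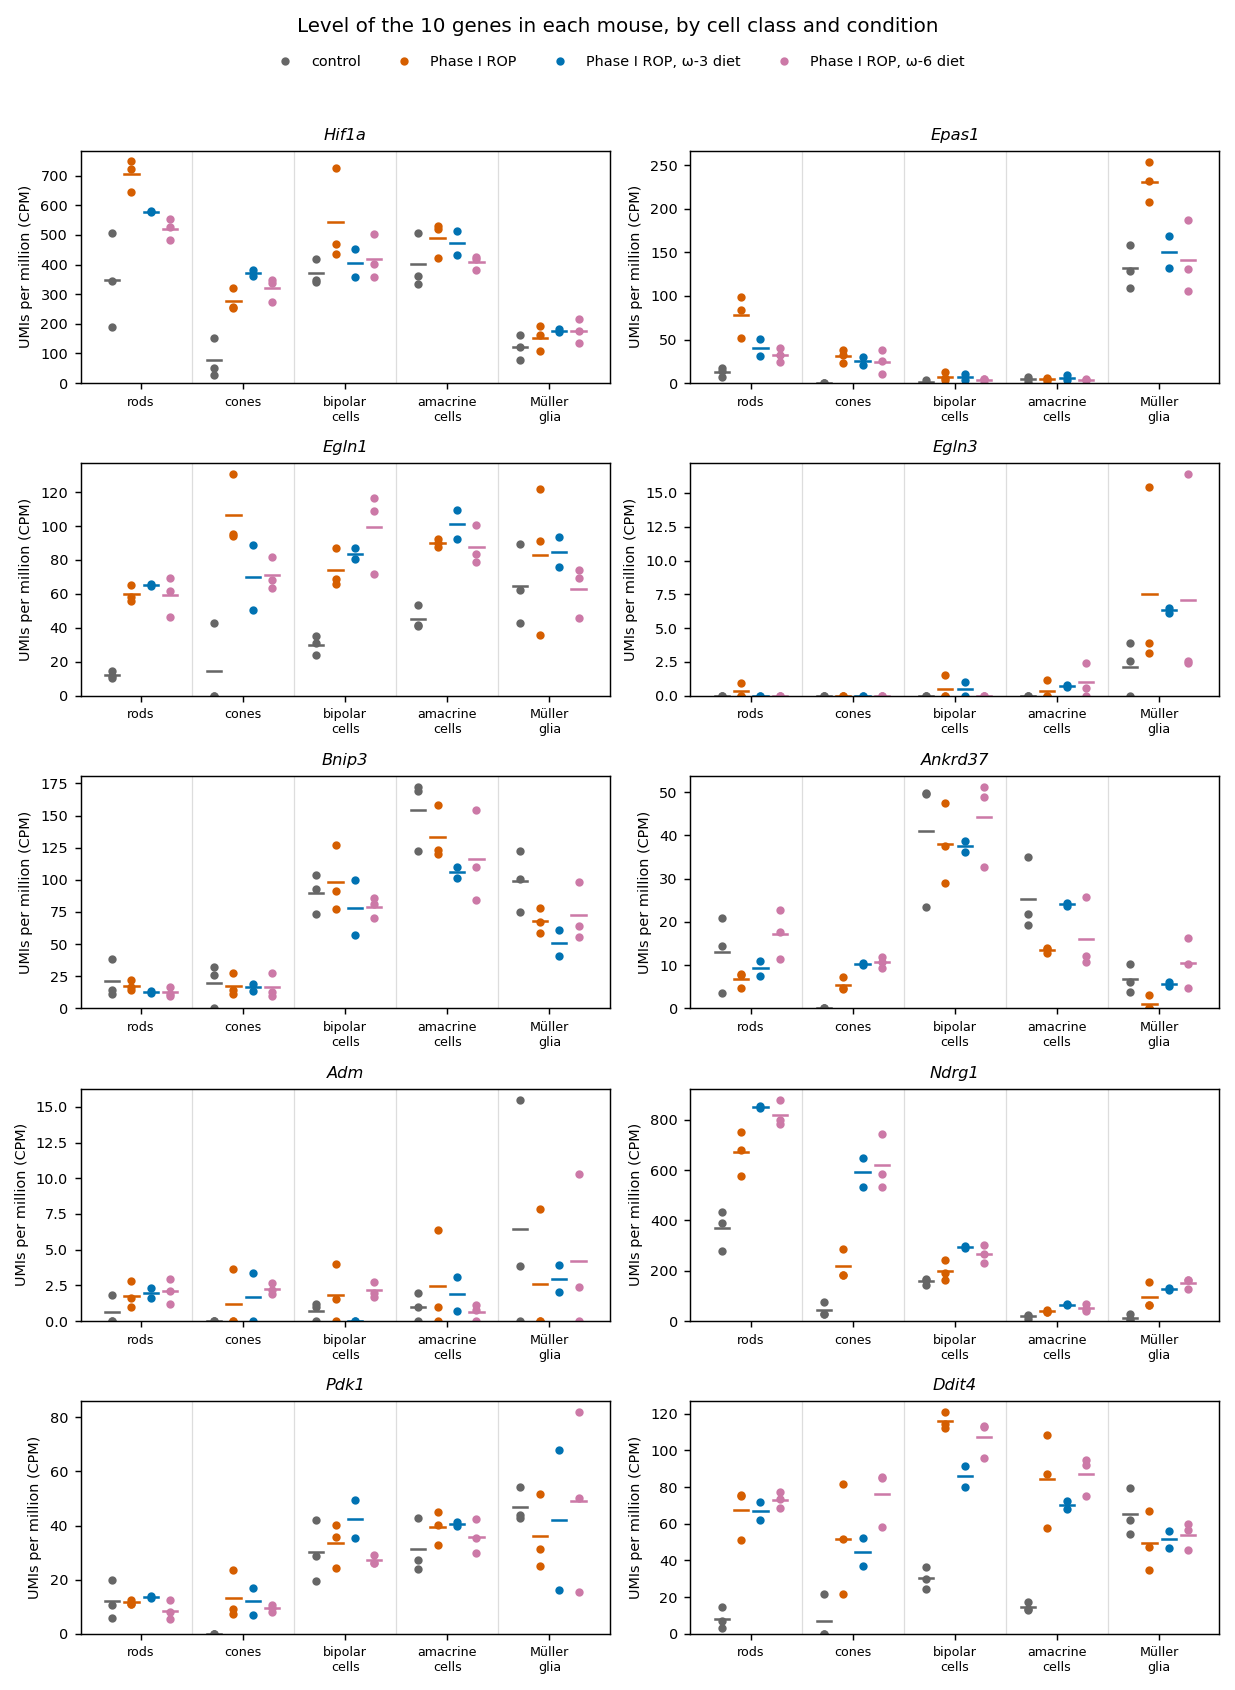
Levels of the 10 members by mouse. Each dot is 1 mouse (CPM of its class), short bars are group means, and the 4 groups are colored as in the key. Ddit4 in rods is at 2.90 to 14.4 CPM in the 3 control mice and 50.9 to 75.8 CPM in the 3 Phase I ROP mice.

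Ddit4 had the largest of the increases among tested members in rods, bipolar cells and amacrine cells. In rods it was 2.9, 6.98 and 14.4 CPM in the control mice and 75.4, 50.9 and 75.8 CPM in the Phase I ROP mice. Each treated mouse was above each control, and the mean was 8.32-fold higher (log2 2.59 ± 0.47 SE, adjusted p = 0.000245, edgeR). In amacrine cells it was 12.9, 17.5 and 13.7 against 87, 57.7 and 108 CPM, again without overlap (log2 2.17 ± 0.29, adjusted p = 8.05e-05, edgeR). In bipolar cells it was 30.1, 24.6 and 36.6 against 112, 121 and 115 CPM, with 3 close treated values (log2 1.5 ± 0.23, adjusted p = 0.000139, edgeR). Cones had 2 Ddit4 UMIs in all controls and 35 in Phase I ROP, below the filter.

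Müller glia did not share this pattern. There Ddit4 was 62, 79.7 and 54.3 CPM in controls and 34.5, 67 and 47.1 CPM in Phase I ROP, with overlapping mice (log2 -0.52, 95% interval -1.34 to 0.30, adjusted p = 0.399, edgeR). The upper bound is below the estimated increase in each of the other 3 classes tested. In each control mouse, Ddit4 was higher in Müller glia than in the other 4 classes. In Phase I ROP it was higher in bipolar cells than in Müller glia in all 3 mice. The difference in the change among the 5 classes was tested directly, with mouse as a block (edgeR's F test of class by treatment, 12.6% of 12636 genes called), and gave an adjusted p = 0.000572 for Ddit4. The summed 30 genes of the dissociation list moved with Ddit4 in rods, at 1944 to 2620 CPM in controls and 5203 to 8237 CPM in Phase I ROP. The sum was also higher in amacrine cells, at 2967 to 3508 and 4814 to 5759 CPM. In bipolar cells, where Ddit4 rose, the sum overlapped between the groups, at 2591 to 3185 and 2989 to 3216 CPM. Single genes of the list still moved there, with 9 of 13 tested called higher and 2 lower (median log2 1.66). Of all genes tested in bipolar cells, 21.3% were called higher and 23.9% lower. In Müller glia, where Ddit4 was not called, the sum rose from 2556 to 4413 CPM in controls to 9467 to 13567 CPM. The part of these genes in the Ddit4 values was not tested.

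The oxygen sensor Egln1 rose in rods, bipolar cells and amacrine cells. In rods it was 11.6, 10.5 and 14.4 CPM in controls, on 15 UMIs in all, and 56, 65.2 and 58.2 CPM in Phase I ROP (log2 1.93 ± 0.40, adjusted p = 0.000869, edgeR). In bipolar cells it was 31.2, 35.1 and 23.8 against 65.8, 87.2 and 68.8 CPM, a 2.46-fold higher mean (log2 0.88 ± 0.26, adjusted p = 0.0141, edgeR). In amacrine cells it was 41.6, 53.3 and 41.1 against 90.1, 92.3 and 87.4 CPM, 1.98-fold (log2 0.63 ± 0.20, adjusted p = 0.0194, edgeR). The groups did not overlap in these 3 classes, as for 54.3 to 58.4% of all genes tested there. The call in bipolar cells was lost without control mouse 3 (adjusted p = 0.0505, edgeR) or Phase I ROP mouse 2 (0.0584), and that in amacrine cells in 5 of 19 alternatives, DESeq2 and the fits without control mouse 1 or 3 or Phase I ROP mouse 1 or 2 (largest adjusted p = 0.0796). In cones the values were 0, 0 and 43.1 against 95, 94 and 130.5 CPM on 4 UMIs in controls, and the test was not passed (adjusted p = 0.0569, edgeR). In Müller glia the groups overlapped at 89.2, 42.9 and 62.1 and 91, 36.1 and 122 CPM. The class difference for Egln1 had an adjusted p of 0.0693 in edgeR's F test and was not called. Egln3 gave 18 UMIs in controls and 21 in Phase I ROP over all cells, too few for a test.

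Of the factors themselves, Epas1 rose in rods. It was 17.4, 6.98 and 14.4 CPM in controls and 52.2, 84.2 and 98.9 CPM in Phase I ROP, a 6.07-fold higher mean on 16 and 214 UMIs (log2 2.23 ± 0.42, adjusted p = 0.000326, edgeR). The mice did not overlap. The mice of the diets, also given STZ, lay between at 30.6 and 50.4 and 40.4, 24.2 and 31.9 CPM, each above every control. Müller glia carry more Epas1, and Müller markers in rods summed to 93.7 to 307 CPM in controls and 105 to 144 CPM in Phase I ROP. In Phase I ROP the sum was 0.674 to 0.842% of its level in Müller glia, which would carry 1.47 to 2.14 CPM of Epas1. That figure covers RNA of Müller glia only, and astrocytes and endothelial cells held more Epas1 (1147 and 460 CPM pooled over mice). The part of RNA from Müller glia, astrocytes or endothelial cells in the rod values of Epas1 was not tested. In cones 0 UMIs were found in the controls and 22 in Phase I ROP, at least 1.74-fold higher against 3 counts over the group. In Müller glia it was 159, 129 and 109 against 254, 232 and 208 CPM, 1.75-fold without overlap, and the test was not passed (log2 0.71 ± 0.24, adjusted p = 0.0768, edgeR). The class difference for Epas1 was called in edgeR's F test (adjusted p = 0.0428) but lost in 12 of 15 alternatives, among them each fit with 1 control mouse left out and those without Phase I ROP mouse 2 or 3 (adjusted p up to 0.391).

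Hif1a rose in rods and cones. In rods it was 507, 188 and 344 CPM in controls and 645, 723 and 749 CPM in Phase I ROP, with the 3 control mice far apart and all below the Phase I ROP mice (log2 0.72 ± 0.27, adjusted p = 0.0364, edgeR). The diet mice, also given STZ, were at 582 and 576 CPM on ω-3 and 526, 483 and 555 CPM on ω-6. The value of 483 CPM lay below control mouse 1. The call was lost in 7 of 18 alternatives, the fits without control mouse 2, control mouse 3 or any 1 Phase I ROP mouse, DESeq2 and classes by marker score (largest adjusted p = 0.102). In cones, with 13 to 46 cells in each control mouse, it was 27, 52.1 and 151 against 258, 319.7 and 254 CPM on 17 and 195 UMIs (log2 1.31 ± 0.43, adjusted p = 0.0336, edgeR), and that call was lost in 7 of 17 alternatives, including the removal of control mouse 1, control mouse 2 or any 1 Phase I ROP mouse, at an adjusted p of up to 0.685. In the remaining classes Hif1a had log2 fold changes of 0.13 (95% interval -0.22 to 0.49) in bipolar cells, -0.05 (-0.40 to 0.29) in amacrine cells and 0.23 (-0.47 to 0.93) in Müller glia. None of these passed the test. The class difference for Hif1a was not called in edgeR's F test (adjusted p = 0.0624).

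Ndrg1 rose in cones and Müller glia. In cones it was 27, 26 and 75.5 CPM in controls and 181, 287 and 185 CPM in Phase I ROP, 5.08-fold on 9 and 152 UMIs (log2 1.84 ± 0.50, adjusted p = 0.0139, edgeR). The control values rest on 1, 1 and 7 UMIs, and the gene passed the count filter there through Phase I ROP. With classes by marker score the log2 change was 0.77 and the call was lost (adjusted p = 0.0664, edgeR). The cones also held much rod RNA. The 10 rod markers summed to 5782 to 7452 CPM in cones of controls and 13215 to 18437 CPM in cones of Phase I ROP. In rods they summed to 11508 to 20892 and 33475 to 46918 CPM. The part of rod RNA in the cone values of Ndrg1 and the other members was not tested. In Müller glia it was 7.75, 0 and 28.4 against 62.8, 61.8 and 157 CPM on 13 and 72 UMIs (log2 2.47 ± 0.62, adjusted p = 0.0217, edgeR), a call lost without control mouse 1, control mouse 2 or Phase I ROP mouse 3 (adjusted p up to 0.145). Rod RNA found in Müller glia moved with this value. Rod markers stood at 0.746 to 2.49% of their rod level in the Müller glia of controls and 2.57 to 5.37% in Phase I ROP, which would carry 2.08 to 10.8 and 14.8 to 40.4 CPM of Ndrg1. With that amount subtracted, −2.08 to 17.6 CPM was left in controls and 29.8 to 117 CPM in Phase I ROP, and the counts fell below the filter of the test.

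In rods Ndrg1 was 391, 279 and 434 against 577, 680.2 and 753 CPM, without overlap, and just missed the call (log2 0.55 ± 0.22, adjusted p = 0.0541, edgeR). The 10 rod markers summed to 11508 to 20892 CPM in rods of controls and 33475 to 46918 CPM in Phase I ROP, and their part in the Ndrg1 difference was not tested. Amacrine cells had 9.9, 25.2 and 20.5 against 37.1, 42.7 and 35.8 CPM and were not called (adjusted p = 0.108, edgeR). Bipolar cells had 145, 169 and 162 against 162, 190.2 and 243 CPM, with an interval of the log2 change from −0.45 to 0.27. The class difference for Ndrg1 was called by edgeR's F test (adjusted p = 0.00217). With scaling to library totals Ndrg1 was called in rods (log2 0.83) and amacrine cells (log2 1.05) as well.

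**Figure D3:**
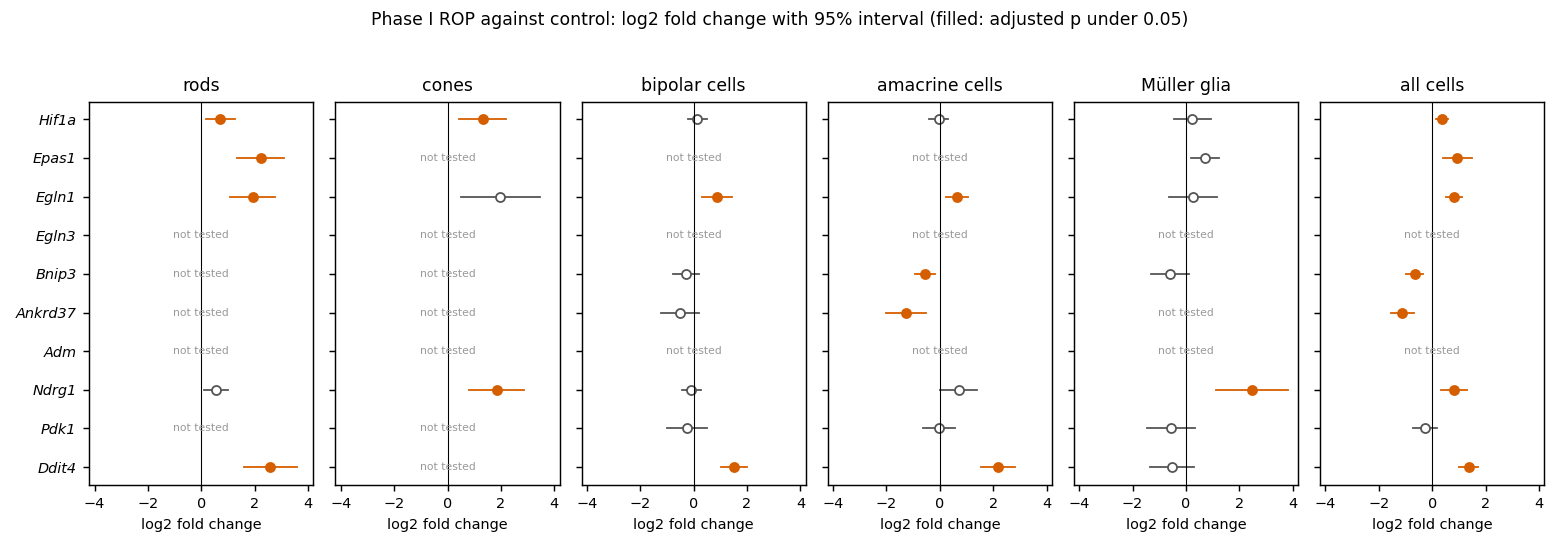
Phase I ROP vs. control log2 fold changes of the members in 5 classes and in all cells. Points are edgeR estimates with 95% intervals, filled where the adjusted p was under 0.05, and members below the count filter are marked as not tested. Ddit4 lies at 2.59 in rods, 2.17 in amacrine cells and 1.5 in bipolar cells, and at −0.52 with an interval across 0 in Müller glia.

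A pair of targets fell in amacrine cells. Ankrd37 was 21.8, 34.9 and 19.4 CPM in controls and 13.8, 12.7 and 13.9 CPM in Phase I ROP, a mean 1.88-fold lower without overlap (log2 -1.26 ± 0.35, adjusted p = 0.0109, edgeR). The call was lost without control mouse 2 (adjusted p = 0.0637). The diet mice, also given STZ, overlapped the controls, at 23.7 and 24.5 CPM on ω-3 and 12.2, 10.7 and 25.6 CPM on ω-6. Bnip3 was 172, 122 and 169 against 123, 120.0 and 158 CPM, where the mice overlap before TMM scaling and 1 control lies at the level of the treated mice (log2 -0.55 ± 0.17, adjusted p = 0.0212, edgeR). With scaling to library totals alone the fall was −0.20 on the log2 scale (adjusted p = 0.381, edgeR), and the call was lost in 7 of 19 alternatives, among them the fits without control mouse 1 or 3 and without Phase I ROP mouse 1 or 2. In bipolar cells neither passed the test, with Ankrd37 at 49.8, 23.4 and 49.5 against 28.9, 37.6 and 47.4 CPM and Bnip3 at 104, 92.6 and 73.2 against 77.1, 91.1 and 127 CPM. Bnip3 in Müller glia was 101, 123 and 75 against 78.5, 67 and 58.9 CPM and was not called (log2 -0.61, adjusted p = 0.256, edgeR). The class differences for Ankrd37 and Bnip3 were not called (adjusted p = 0.44 and 0.922, edgeR's F test).

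Pdk1 was not called in any class. Its log2 fold change was -0.27 (-1.02 to 0.49) in bipolar cells, -0.03 (-0.63 to 0.58) in amacrine cells and -0.56 (-1.45 to 0.33) in Müller glia. In Müller glia, its strongest site among the larger classes, Pdk1 was 54.3, 42.9 and 44 CPM in controls and 25.1, 51.5 and 31.4 CPM in Phase I ROP. Adm gave 15 UMIs in controls and 29 in Phase I ROP over all cells and was not tested.

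In sums over all cells, 24.7, 23 and 28.2 against 79.8, 69.1 and 86.6 CPM of Ddit4 made the largest increase (log2 1.37 ± 0.16, adjusted p = 5.72e-05, edgeR). Epas1 (log2 0.94), Egln1 (0.82), Ndrg1 (0.81) and Hif1a (0.37) also rose, with adjusted p-values of 0.000735 to 0.016 (edgeR). Ankrd37 fell from 27.3, 29.2 and 23.1 to 12.7, 15.2 and 15.8 CPM (log2 -1.12 ± 0.20, adjusted p = 0.00073, edgeR). Bnip3 fell from 116, 100.1 and 84.9 to 68.1, 74.1 and 86.9 CPM, where 1 treated mouse lies among the controls (log2 -0.65 ± 0.15, adjusted p = 0.00351, edgeR; −0.39 and 0.053 with scaling to library totals). Rods, in which Ndrg1 and Hif1a are high and Bnip3 is low, were 221 of 787 to 534 of 1493 cells in controls and 664 of 1397 to 1280 of 2312 cells in Phase I ROP. A shift in the makeup of cells and a change within cells cannot be told apart in these sums.

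The other genes of the pathway, 71 beyond the members, were taken as lists of machinery and target groups. In all cells 18 of 64 tested genes rose and 16 fell (median log2 0.15), shares near the 24.7% of all genes called higher and 23.4% called lower. The counts of the smaller lists are to be read beside the same shares. The HIF machinery had 5 higher and 3 lower of 13, glucose use 3 higher and 8 lower of 20, and mitochondrial targets 0 higher and 4 lower of 6 (median −0.93). Transcription and chromatin targets had 5 higher and 0 lower of 7, and targets of pH, lipid and iron handling 4 higher and 0 lower of 7. Matrix enzymes had 0 higher and 1 lower of 7, and secreted factors 1 higher and 0 lower of 4. By class, Müller glia had 2 higher and 6 lower of 39, where 10.8% of all genes were called, and rods had 9 higher and 6 lower of 44, where 41.1% were. Amacrine cells had 16 higher and 13 lower of 54, cones 4 and 2 of 25, and bipolar cells 11 and 15 of 49, beside 38.8, 18.8 and 45.3% of all genes.

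**Figure D4:**
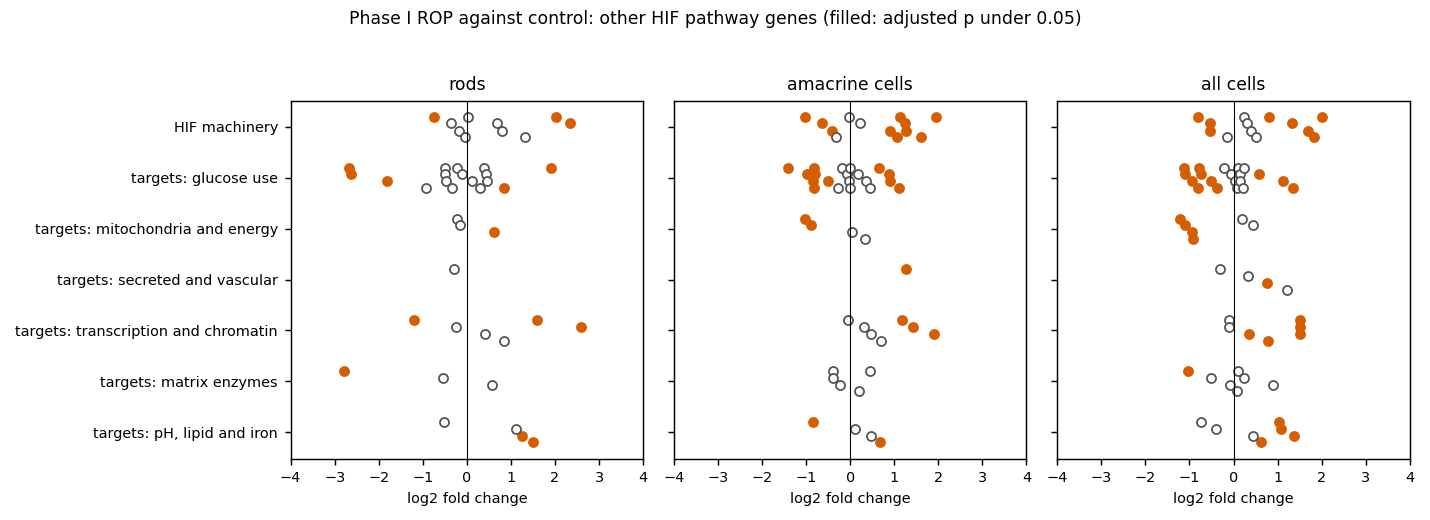
Phase I ROP vs. control log2 fold changes of HIF machinery and target genes other than the members, by list, in rods, amacrine cells and all cells. Each point is 1 gene, filled where the adjusted p (edgeR) was under 0.05. In all cells 18 of 64 tested genes were called higher and 16 lower, where 24.7 and 23.4% of all genes were.

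Cited2, which competes with HIF for its coactivators, rose in the 4 classes where it was tested and in all cells. It was at 50.4 to 69.5 CPM in controls and 308 to 399 CPM in Phase I ROP in rods (log2 2.34, adjusted p = 9.21e-07, edgeR), and it was also called in cones, bipolar cells, amacrine cells and all cells (log2 1.86 to 2.02). The call in cones was lost without control mouse 2 or 3 or Phase I ROP mouse 2 or 3 (adjusted p up to 0.108). Kdm4b, a histone demethylase, was at 0 to 14.5 CPM in controls and 37 to 43.5 CPM in Phase I ROP in rods (log2 2.60, adjusted p = 0.00348, edgeR), on 6 and 109 UMIs. Its call was lost with classes by marker score (adjusted p = 0.0759, edgeR). Siah2, a ubiquitin ligase acting on the Egln enzymes, was at 0 to 3.96 CPM in controls and 15.8 to 30.5 CPM in Phase I ROP in bipolar cells (log2 3.37, adjusted p = 0.00169, edgeR), on 4 and 39 UMIs. Both genes passed the count filter through Phase I ROP and were named for the size of their increase. Bhlhe40 in amacrine cells (log2 1.90, adjusted p = 0.027) and Wsb1 in Müller glia (log2 1.28, adjusted p = 0.0476) rose as well in edgeR's test. The call of Wsb1 was lost with any 1 of the 6 mice left out (adjusted p up to 0.172), and that of Bhlhe40 without control mouse 1 or 3 or Phase I ROP mouse 2 or 3 (up to 0.171).

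Among the decreases were the glucose transporter Slc2a3 in rods, at 110.1 to 193 CPM in controls and 28.6 to 33.8 CPM in Phase I ROP (log2 -2.67, adjusted p = 7.46e-07, edgeR), and the lysyl oxidase Loxl2 in rods (log2 -2.8, adjusted p = 5.92e-07) and bipolar cells (log2 -1.56, adjusted p = 0.00163). Elob, a subunit of the VHL ubiquitin ligase, fell in bipolar cells (log2 -1.31, adjusted p = 6.89e-06) and amacrine cells (log2 -1.04, adjusted p = 2.51e-05). The mitochondrial genes Higd1a in amacrine cells (log2 -1.02, adjusted p = 0.000106) and Fam162a in Müller glia (log2 -1.18, adjusted p = 0.0135, lost without Phase I ROP mouse 1) fell too. In Müller glia the glycolytic enzyme Eno1 fell (log2 -0.81, adjusted p = 0.045) while Aldoa rose (log2 0.88, adjusted p = 0.0256), and Eno1 fell in cones (log2 -0.87, adjusted p = 0.00928). In Müller glia both calls were lost with any 1 control mouse left out or without Phase I ROP mouse 2 or 3 (adjusted p up to 0.151 for Eno1 and 0.113 for Aldoa), and that of Eno1 in cones without control mouse 3 or Phase I ROP mouse 3 and under library totals (up to 0.434). In all cells Siah2 rose (log2 1.83, adjusted p = 0.000395), and Ndufa4l2 (log2 -1.21, adjusted p = 0.0062) and Gys1 (log2 -1.12, adjusted p = 0.00397) fell.

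A pair of standard HIF targets was followed by name. Vegfa, the vessel growth factor, rose in amacrine cells, at 16.5 to 36.6 CPM in controls and 65.8 to 91.2 CPM in Phase I ROP (log2 1.27 ± 0.28, adjusted p = 0.00245, edgeR), and in bipolar cells (log2 0.93, adjusted p = 0.027, lost without control mouse 1 or Phase I ROP mouse 1 or 3). In Müller glia, where it was highest of the 5 classes, Vegfa stood at 98.2 to 178 against 259 to 320 CPM and just missed the call (log2 0.82, adjusted p = 0.0532, edgeR). In rods the change was -0.29 (-1.20 to 0.61). Slc2a1, the glucose transporter GLUT1, rose in rods (log2 0.85, adjusted p = 0.0197, edgeR), in amacrine cells (1.10, 0.0135) and in cones, where controls held 1 UMI and Phase I ROP 62 (3.53, 0.0152). In cones it passed the count filter only through Phase I ROP, so that only an increase could be called there. These calls of Slc2a1 were lost in rods and amacrine cells without Phase I ROP mouse 3 and in cones without control mouse 1 or 3. The call in rods was also lost with thinned cells, with classes by marker score and with only clusters led by a marker (adjusted p up to 0.354). In Müller glia it was 297 to 313 against 365 to 454 CPM and not called (adjusted p = 0.257, edgeR).

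The second comparison asks whether the ω-6 and ω-3 diets differed in Phase I ROP. No member was called in any class (8 tested in rods, 6 in cones, 7 each in bipolar cells, amacrine cells and Müller glia, 10 in all cells). Few genes were called at all by edgeR: 2 of 12600 in rods (0.0159%), and 0 of 7840 in Müller glia, 0 of 13121 in amacrine cells, 0 of 9160 in cones, 0 of 11942 in bipolar cells and 0 of 18821 in all cells (0% each). At an unadjusted p under 0.05 there were 1383, 280, 1298, 736, 503 and 1328 genes in that order, and DESeq2 called 39, 2, 7, 2, 2 and 23. No gene of the wider lists was called.

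**Figure D5:**
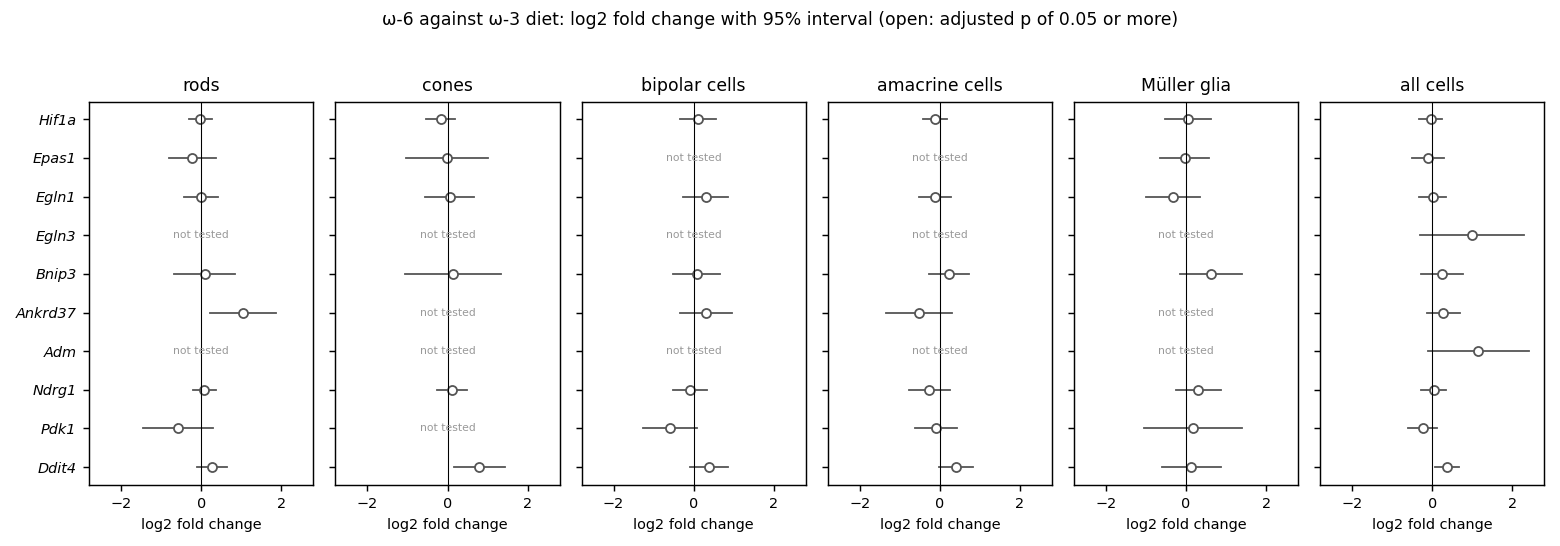
ω-6 vs. ω-3 diet log2 fold changes of the members in 5 classes and in all cells, with 95% intervals (edgeR). No point is filled, since none had an adjusted p under 0.05. Ankrd37 in rods (1.04) has the smallest unadjusted p among members.

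Among members, Ankrd37 in rods had the smallest p in edgeR's test, at 11 and 7.54 CPM on the ω-3 diet and 17.5, 11.5 and 22.8 CPM on the ω-6 diet (log2 1.04, 95% interval 0.22 to 1.86, adjusted p = 0.39). The estimate for Ddit4 was above 0 in all 5 classes, without a call in any. In cones it was 37 and 52.4 against 85, 58.2 and 85.8 CPM (log2 0.79, 0.15 to 1.43, adjusted p = 0.6, edgeR), and in all cells 66.8 and 64.9 against 77.6, 83 and 82 CPM (log2 0.38, 0.08 to 0.67, adjusted p = 0.682, edgeR). The diets did not overlap in either, as for 25.1% of all genes tested in cones and 26.9% in all cells.

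The intervals bound how far the diets can differ. For Hif1a in rods, at 582 and 576 against 526, 483 and 555 CPM, the interval of the log2 change was -0.32 to 0.27, and for Ndrg1 in rods, at 847 and 855 against 799, 879.8 and 782 CPM, it was -0.21 to 0.36. For Egln1 it was -0.44 to 0.41 in rods and -0.52 to 0.29 in amacrine cells. Low-count members had wider intervals: Pdk1 in Müller glia ran from −1.04 to 1.39, and Adm and Egln3 in all cells from -0.11 to 2.42 and -0.30 to 2.28. Vegfa had log2 changes of 0.43 (-0.21 to 1.07) in Müller glia and -0.51 (-1.35 to 0.32) in rods, and 0.07 (−0.33 to 0.48) in all cells. Slc2a1 had 0.04 (−0.42 to 0.49) in Müller glia and 0.01 (−0.35 to 0.36) in all cells. The diet mice and the Phase I ROP mice are not labelled as littermates of each other and were not tested against each other. Side by side, in rods Ndrg1 was 577, 680.2 and 753 CPM in Phase I ROP and 782 to 880 CPM in the 5 diet mice, and in cones 181, 287 and 185 CPM and 532 to 743 CPM. The 10 rod markers in cones differed as well, with sums of 13215 to 18437 CPM in Phase I ROP. On the ω-3 diet they summed to 24381 to 28235 CPM and on the ω-6 diet to 25882 to 31292 CPM. The part of rod RNA in these cone values was not tested.

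Genes whose levels ran most like a member's were sought over 55 sums (5 classes in each of 11 mice) among 8471 genes. The sums of a mouse share its library, and those of a class share its cell type, so r describes shared distribution only. Ndrg1 ran most like photoreceptor genes, Cngb1 (Pearson r = 0.911), Neurod1 (0.901) and Nr2e3 (0.896). Hif1a ran like Mmd (0.919), Plxna2 (0.857) and Bicral (0.835), and Epas1 like Zfp36l2 (0.897), Gldc (0.878) and Slmap (0.874). Bnip3 ran like its antisense neighbour Gm45507 (0.988), with which it may share reads, then Tceal3 (0.916) and Gpm6a (0.911). Egln1 ran like Zfp771 (0.935), Exoc4 (0.933) and Spata2 (0.926). Ddit4 ran like Psmd3 (0.899), Ammecr1l (0.894) and Eif4ebp2 (0.891), and Pdk1 like Rcn2 (0.907), Glrb (0.905) and Cttn (0.900).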

How the data were processed

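Retinas of 11 mice at P10 were dissociated with papain and captured by inDrop. The authors used bcbio-nextgen with umis and Rapmap on GRCm38 (mm10) transcripts and deposited a table of raw UMI counts, with 25311 genes in 20067 cells. Cells in which over 300 genes were found, and genes found in over 10 cells, were clustered in Seurat 5.3.0 (2000 variable genes, 75 principal components, resolution 0.2, 25 clusters) and named from markers. Scrublet marked 0.349% of cells, so no doublets were removed, and an alternative dropped the 5% of cells with the highest scores.

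Counts were summed per mouse and class and tested with edgeR 4.0.16 in R 4.3.3 (TMM, filterByExpr, quasi-likelihood test, Benjamini-Hochberg, threshold 0.05). The study's own test used cells as replicates, whereas here the mouse was the replicate. Levels are CPM of the class sum. The fits were tested on simulated data. By comparison and class, 84.6 to 98.3% of 4-fold changes were called there, but only 18 to 64.1% of 2-fold changes. The lowest share of 2-fold changes was that for diet in Müller glia. The test of class differences called 58.6% of 4-fold changes placed in rods alone. A gene that was not called can therefore still differ. The alternatives were DESeq2 1.42.0, other scalings, count and cell filters, other class definitions, 4 groups in 1 fit, a replicate block, thinning and each mouse left out.

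Named were the 10 members, Vegfa and Slc2a1, in each class the 2 largest called increases and decreases of the wider lists without overlap between groups, the 3 genes most like each member with a mean of at least 20 CPM, and the RNA quality genes. Members and lists were chosen with earlier results of these data known. Subtraction of rod RNA and scaling to library totals were chosen after seeing the data. Sequences came from RefSeq.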

Additional observations from a re-analysis of the deposited data

Results flagged for a closer look

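For 3 members the change with STZ differed among the 5 classes, by edgeR's F test of the class by treatment terms with mouse as a block and Benjamini-Hochberg adjustment. Ddit4 had the smallest adjusted p (0.000572): it rose in rods, bipolar cells and amacrine cells and had a log2 change of −0.52 that was not called in Müller glia. Ndrg1 followed (adjusted p = 0.00217), with log2 changes of 2.47 in Müller glia and 1.84 in cones and −0.09 in bipolar cells. Those of Müller glia and cones rest on 13 and 9 control UMIs, and their calls were lost in 3 of 18 and 1 of 17 alternatives. With rod RNA subtracted, Ndrg1 in Müller glia fell below the count filter, and with scaling to library totals the change in bipolar cells turned direction. The class differences of Ddit4 and Ndrg1 held in 15 of 15 alternatives, with adjusted p-values of up to 0.0162 for Ddit4 and 0.0464 for Ndrg1. Epas1 was the weakest (adjusted p = 0.0428) and was lost in 12 of 15 alternatives, with an adjusted p of up to 0.391.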

How the results depend on the processing

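The called STZ increases of Epas1, Egln1 and Ddit4 in rods and of Ddit4 in bipolar and amacrine cells were called under every alternative run, and no called change of a member turned its direction. In rods Epas1, Egln1 and Ddit4 had only 16, 15 and 11 UMIs in controls and passed the count filter through Phase I ROP. The alternatives drew on the same mice and the same low control counts, so they do not lift this limit. Over all named genes, 756 of the STZ log2 changes kept direction and side of the threshold under other settings, 33 lost and 20 gained a call and 12 turned direction, and with 1 mouse left out 342 kept both, 58 lost and 4 gained a call and 10 turned. Same-numbered STZ and control mice had correlations from −0.059 to 0.154, not all over 0.1. Number 3 was the best match in every class and in all cells (0.0503 to 0.154), while numbers 1 and 2 were not. The diets share only 2 numbers, with correlations of 0.0450 to 0.0868 for number 1 and 0.181 to 0.272, the best match in every class, for number 2. As the match differed by number, the numbers were not taken to pair the mice, though a batch shared by some of them was not tested. The replicate block, which raised the diet calls, is given only here. The causes were not tested.

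With DESeq2, genes called for STZ were 309 in Müller glia, and genes called for diet were 2 in Müller glia, 39 in rods, 7 in amacrine cells, 2 in cones, 2 in bipolar cells, 23 in all cells. With all 4 groups in 1 fit, genes called for STZ were 5255 in rods, 958 in cones, and genes called for diet were 6 in rods. With only cells of more than 500 genes, genes called for diet were 0 in rods, and diet log2 changes turned to Egln1 in rods 0.00862, Slc2a1 in all cells -0.0165. With classes by marker score, genes called for STZ were 1787 in rods, 1055 in cones, and STZ log2 changes turned to Hif1a in amacrine cells 0.104, Pdk1 in amacrine cells 0.0992, Ndrg1 in bipolar cells 0.00972, and genes called for diet were 0 in rods, and diet log2 changes turned to Slc2a1 in Müller glia -0.0571, Egln1 in rods 0.0113, Egln1 in amacrine cells 0.0444, Epas1 in cones 0.129, Egln1 in cones -0.0387, and 303 genes had a class difference, and mean levels were Egln3 in cones 0.331 CPM, Bnip3 in cones 28.2 CPM, Pdk1 in cones 17.4 CPM. With clustering that left out the hypoxia genes, genes called for diet were 1 in rods, and diet log2 changes turned to Hif1a in Müller glia -0.000237. With only clusters led by a marker, genes called for STZ were 2143 in rods, and diet log2 changes turned to Hif1a in rods 0.0393, and 714 genes had a class difference. Without the filter on low counts, STZ log2 changes turned to Vegfa in rods 0.0433, Pdk1 in amacrine cells 0.00016, and genes called for diet were 9 in Müller glia, 154 in rods, 92 in amacrine cells, 13 in cones, 16 in bipolar cells, and diet log2 changes turned to Epas1 in cones 0.0152. With the replicate block, STZ log2 changes turned to Pdk1 in amacrine cells 0.00249, and genes called for diet were 10 in Müller glia, 42 in rods, 60 in amacrine cells, 22 in cones, 17 in bipolar cells, 75 in all cells, and diet log2 changes turned to Hif1a in Müller glia -0.152, Slc2a1 in Müller glia -0.0114, Bnip3 in rods -0.164, Bnip3 in amacrine cells -0.0576, Epas1 in cones 0.330, Egln1 in cones -0.0396, Hif1a in bipolar cells -0.0452, Epas1 in all cells 0.0344, Egln1 in all cells -0.0345, Vegfa in all cells -0.0161, Slc2a1 in all cells -0.0508. With rod RNA subtracted, genes called for diet were 1 in Müller glia, and diet log2 changes turned to Hif1a in Müller glia -0.0480, Ndrg1 in amacrine cells 0.174. With scaling to library totals, STZ log2 changes turned to Hif1a in amacrine cells 0.303, Pdk1 in amacrine cells 0.326, Bnip3 in bipolar cells 0.150, Ndrg1 in bipolar cells 0.339, Pdk1 in bipolar cells 0.155, and genes called for diet were 0 in rods, and diet log2 changes turned to Hif1a in Müller glia -0.0253, Slc2a1 in Müller glia -0.0358, Bnip3 in rods -0.0461, Ndrg1 in rods -0.0569, Egln1 in all cells -0.0704, Ndrg1 in all cells -0.0450, Vegfa in all cells -0.00684, Slc2a1 in all cells -0.0755. With cells thinned to equal depth, genes called for STZ were 2220 in rods, 133 in cones, and diet log2 changes turned to Hif1a in Müller glia -0.0335, Hif1a in rods 0.00681, and 103 genes had a class difference. Without the highest doublet scores, STZ log2 changes turned to Pdk1 in amacrine cells 0.0568, and genes called for diet were 0 in rods, and diet log2 changes turned to Hif1a in Müller glia -0.200, Pdk1 in Müller glia -0.204, Slc2a1 in amacrine cells 0.0653, Epas1 in cones 0.0115, Slc2a1 in all cells -0.00684.

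With 1 mouse left out in turn, where an arm of 1 mouse is assumed to vary like the others, values moved as follows. For STZ in cones, the count of called genes ran from 276 to 654. For STZ in bipolar cells, Hif1a ran from -0.0905 to 0.238, Ndrg1 from -0.252 to 0.00524, Pdk1 from -0.510 to 0.0217. For STZ in amacrine cells, Hif1a ran from -0.190 to 0.151, Pdk1 from -0.222 to 0.257. For STZ in Müller glia, the count of called genes ran from 265 to 420, Hif1a from -0.0464 to 0.545, Egln1 from -0.0704 to 0.590. For diet in rods, the count of called genes ran from 0 to 17, Hif1a from -0.0880 to 0.0173, Epas1 from -0.554 to 0.229, Egln1 from -0.135 to 0.117, Bnip3 from -0.166 to 0.266, Vegfa from -0.965 to 0.0371. For diet in cones, the count of called genes ran from 0 to 3, Epas1 from -0.393 to 0.309, Egln1 from -0.303 to 0.527, Bnip3 from -0.0887 to 0.427, Ndrg1 from -0.0446 to 0.279, Vegfa from -1.01 to 0.385, Slc2a1 from -0.0358 to 0.396. For diet in bipolar cells, Hif1a ran from -0.0484 to 0.258, Bnip3 from -0.249 to 0.507, Ndrg1 from -0.204 to 0.00187, Vegfa from -0.218 to 0.162. For diet in amacrine cells, the count of called genes ran from 0 to 5, Hif1a from -0.242 to 0.0105, Egln1 from -0.231 to 0.0128, Bnip3 from -0.0478 to 0.395, Pdk1 from -0.236 to 0.0102, Vegfa from -0.329 to 0.0722. For diet in Müller glia, the count of called genes ran from 0 to 4, Hif1a from -0.154 to 0.214, Epas1 from -0.268 to 0.139, Pdk1 from -0.445 to 1.57, Vegfa from -0.0592 to 1.05, Slc2a1 from -0.125 to 0.181. For diet in all cells, the count of called genes ran from 0 to 2, Hif1a from -0.0967 to 0.0233, Epas1 from -0.182 to 0.0331, Egln1 from -0.113 to 0.144, Ndrg1 from -0.0970 to 0.176, Vegfa from -0.0403 to 0.214, Slc2a1 from -0.0667 to 0.124. The count of genes with a class difference ran from 671 to 1447. Few UMIs limit Egln3 and Adm in every class and most members in control cones.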
